A study of Rattus norvegicus with 6 samples.

Results

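The genes described here are the rows of a count table whose names belong to the COPII coat, the COPI coat, the ARF family, the p24 and lectin cargo receptors, the KDEL receptors and the golgins. A name rule that used no measured value, but was set with earlier results of these data known, picked 61 of the 56748 rows. Its columns are 6 RNA-seq libraries from sensory neurons of the dorsal root ganglion, which the labels call primary and rat, while the gene identifiers are those of mouse. Of these, 3 received extracellular vesicles from acutely denervated muscle (EVadMu) and 3 received vesicles from innervated muscle (EVMu), so both groups carry vesicle treatment and there is no group without vesicles. The sources used here give no strain, age, vesicle dose or exposure time. Nothing states that replicate libraries had cultures of their own, so the p-values measure only library-to-library spread, which may be technical. Culture or sequencing batch cannot be told apart from the kind of vesicle.

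Proteins bound for the cell surface, the axon or secretion leave the endoplasmic reticulum in COPII vesicles and are sorted in the Golgi apparatus. COPI vesicles carry escaped residents and empty receptors back. COPII assembly is started by the small GTPase SAR1 at sites marked by SEC16, with SEC23 and SEC24 as the inner, cargo-reading layer and SEC13 and SEC31 as the outer cage. COPI is recruited to Golgi membrane by ARF GTPases, and ARF GTPase-activating proteins end the cycle. Sensory neurons depend on this route to supply long axons with receptors, channels and adhesion molecules.

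Of the 61 rows, 59 had enough reads to be tested, 58 of them through both groups. Levels are CPM, counts scaled to the size of the library with TMM factors, and changes are log2 fold changes of EVadMu over EVMu with the standard error of the fit. With edgeR's quasi-likelihood test, adjusted by Benjamini-Hochberg over all 16993 tested genes at a threshold of 0.05, 45 of the 61 rows were higher in EVadMu and 7 were lower. Over all tested genes 80.0% were called in either direction, 39.2% higher and 40.8% lower. A call with at least a 2-fold rise was made for 30 rows, against 17.6% of all tested genes, and no row had a 2-fold fall, which 23.5% of tested genes had. Without Lman1l, which passed the filter through EVadMu alone, 44 were higher, 29 of them at least 2-fold. The median log2 fold change of the tested rows was 1.01 (0.99 without Lman1l), against -0.02 over all tested genes. Reads of all 61 rows together came to 13280, 13400 and 13570 CPM in EVadMu libraries, against 6224, 6217 and 6245 CPM in EVMu libraries. Both groups were tight and far apart on this sum.

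**Figure D1:**
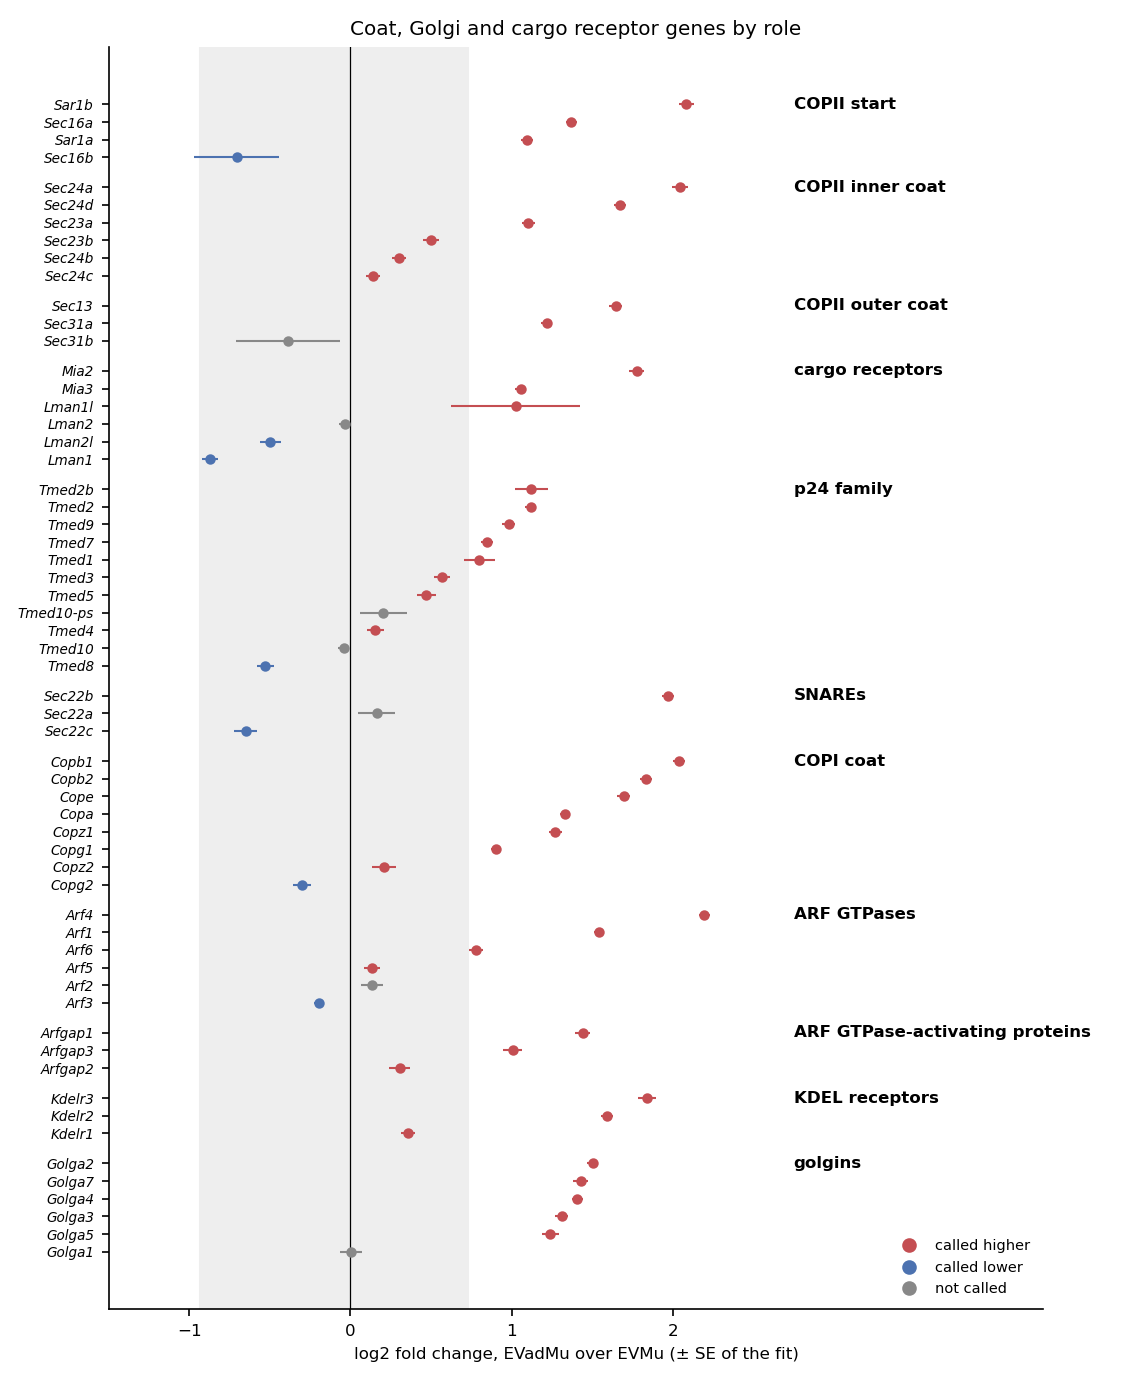
Log2 fold change of EVadMu over EVMu (horizontal axis, ± SE of the edgeR fit, 3 libraries per group) for the 59 tested genes, grouped by role. Red points were called higher, blue lower and grey neither, and the grey band spans the middle quartiles of all tested genes (-0.93 to 0.73). Most points lie right of the band, and the range runs from Lman1 at -0.87 to Arf4 at 2.20.

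The libraries held 14853115 to 17019877 counts, and the variance between replicate libraries was 2.08 to 3.05 times that of counting alone. Neuronal markers were present in both groups, and none of the 12 was at 0, with 1 higher and 8 lower in EVadMu and summed levels of 3944 to 4058 CPM in EVadMu against 5892 to 6155 CPM in EVMu. Of 12 fibroblast markers 11 were lower (summed 585.6 to 603.9 CPM in EVadMu against 6870 to 6943 CPM in EVMu), as were 11 of 12 markers of Schwann and satellite glia (1036 to 1064 against 4553 to 4786 CPM) and 7 of 8 of endothelial and mural cells (138 to 145 against 759.5 to 787 CPM). Of 10 macrophage and leukocyte markers 7 were lower and 1, Cd68, was higher (summed 136 to 141 against 37.0 to 40.4 CPM). Most of that sum in EVadMu was Cd68, with 128 to 135 CPM, against 10.7 to 14.0 CPM in EVMu. Of 10 muscle transcripts 7 were higher and 1 lower (32.3 to 38.8 against 13.5 to 15.1 CPM). No marker of these lists was at 0 in all libraries of a group. Reads of the mitochondrial ribosomal RNA genes made up 0.565 to 0.604% of an EVadMu library and 0.0525 to 0.0541% of an EVMu library. The part of these differences in the results below was not tested. In such bulk samples, fewer cells of a type and less RNA per cell cannot be told apart.

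Since many members moved together, the windows around their transcript starts were searched for letters of stress-response elements. RefSeq windows of the rat genome (GRCr8), from 250 bases before to 50 after the start, matched 52 members by symbol. Only the first window of each member was kept, and 3 further windows of members were left out. The shares given for comparison count every window, also those of genes that were not tested. The unfolded protein response element is bound by ATF6 and XBP1, and its core TGACGTGG, read on both strands, was in 8 of these 52 windows (15.4%), against 199 of 33469 windows in the whole table (0.595%) and 132 of 21851 windows of protein-coding genes (0.604%). Stretches of these 8 windows are shown because they belong to COPI subunits, the ARF GTPases that recruit COPI, a KDEL receptor, a COPII inner coat gene and a golgin. Each stretch reaches up to 30 bases to either side of the core on the gene's own strand, and the Copa stretch is cut to 30 bases. Capitals mark the core, and a capital C beyond it (a capital G before it when the core is read on the other strand) completes the core ACGTGGC of the Golgi apparatus stress response element, which shares the letters ACGTGG with it.
Arf1, chr10:44513987-44514054, minus strand: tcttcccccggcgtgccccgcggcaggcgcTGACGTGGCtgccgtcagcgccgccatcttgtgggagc
Arf4, chr16:1903397-1903464, plus strand: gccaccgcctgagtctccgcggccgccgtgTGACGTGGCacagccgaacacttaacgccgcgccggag
Copa, chr13:87078887-87078916, plus strand: cctggggtagcTGACGTGGagcctttggga
Copb1, chr1:177872811-177872876, minus strand: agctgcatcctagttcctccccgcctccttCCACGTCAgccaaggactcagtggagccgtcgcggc
Copb2, chr8:108040647-108040714, plus strand: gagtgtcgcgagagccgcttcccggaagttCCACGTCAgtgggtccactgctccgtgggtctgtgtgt
Golga1, chr3:43222435-43222502, minus strand: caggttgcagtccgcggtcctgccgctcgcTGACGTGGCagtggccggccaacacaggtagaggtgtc
Kdelr3, chr7:112959501-112959568, plus strand: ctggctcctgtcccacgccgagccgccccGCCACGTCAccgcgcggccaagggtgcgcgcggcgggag
Sec23a, chr6:82440958-82441025, minus strand: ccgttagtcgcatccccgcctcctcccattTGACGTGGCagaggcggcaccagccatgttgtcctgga
The core lay within 10 bases of the annotated start in Arf4, Copb1 and Copb2, and furthest upstream in Golga1. All these genes rose except Golga1, which had a log2 fold change of 0.00 ± 0.067 (adjusted p = 0.966).

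Over the tested members with a window, 7 of the 8 with the TGACGTGG core were called higher, with a median log2 fold change of 1.69. Without the core, 31 of the 43 were called higher, with a median of 0.777. Neither count holds the 9 members that had no window. Among those, Sec24d, Kdelr2, Golga7, Golga4, Tmed2b and Sar1a rose by 1.67, 1.59, 1.43, 1.41, 1.12 and 1.1. Sec24c rose by 0.14, Tmed10-ps was not called and Tmed11 was not tested. Among tested genes outside the list, 48.3% of 89 with the core were called higher (median 0.16), against 40.9% of 10919 without it (median -0.03). The Golgi stress core ACGTGGC was in 16 member windows (30.8%) against 2.3% of all windows and 2.54% of those of protein-coding genes. Of the tested members with a window, 13 of 16 with ACGTGGC were called higher and 1, Arf3, lower (median 1.04), against 25 of 35 without it called higher (median 0.80). The 16 include Arf1, Arf4, Golga1, Kdelr3 and Sec23a, where a site holds both cores, so the comparisons of the cores are not independent. The higher calls of Arf5 and Copz2 were lost in some alternatives, as given below. Among other tested genes, 54.0% of 374 with ACGTGGC were called higher (median 0.301), against 40.5% of 10634 without it (median -0.03). The longer elements ERSE (CCAAT and CCACG with a fixed gap) and ERSE-II (ATTGG, any base and CCACG) were read on both strands. They were in 0 of 52 member windows. Of all windows 0.0657% and 0.0508% held them, and of those of protein-coding genes 0.087% and 0.0595%. The ATF4 and CHOP core TGATGNAA was in 0 member windows, in 3.98% of all and in 3.35% of those of protein-coding genes. With shares this low, 52 windows are too few to tell 0 from the share of all windows. The motifs were chosen after the fold changes had been seen, and a match is a match of letters only.

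**Figure D2:**
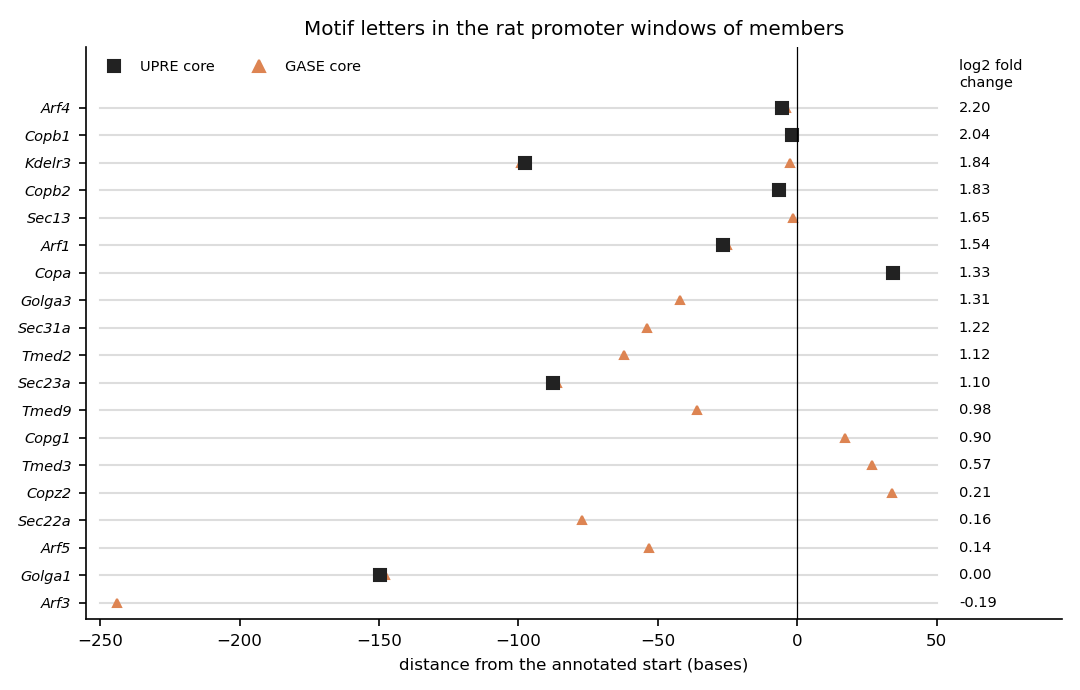
Positions of the UPRE core TGACGTGG (black squares) and the GASE core ACGTGGC (orange triangles) relative to the annotated transcript start in the rat windows of the 19 members that hold either (horizontal axis, bases), ordered by log2 fold change (numbers at the right). A triangle under a square is the same site read as both. Members with the UPRE core run from Arf4 at 2.20 to Golga1 at 0.00.

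A pair of COPII genes shared a promoter. Sar1b and Sec24a lie head to head in the rat genome, with starts 62 bases apart on opposite strands, and their windows overlap by 161 bases. The stretch below is shown because it holds both starts, on the strand of Sar1b, with the starts and all bases between them in capitals.
Sar1b and Sec24a, chr10:36525274-36525394, plus strand: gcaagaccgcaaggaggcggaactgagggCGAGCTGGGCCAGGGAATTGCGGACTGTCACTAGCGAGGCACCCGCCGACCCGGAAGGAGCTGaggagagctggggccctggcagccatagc
In fold change these genes came next after Arf4 among the tested members. Sar1b, a GTPase whose activation begins coat assembly and which is needed for export of lipoprotein particles, had 169.8, 180.1 and 182 CPM in EVadMu libraries, against 42.2, 40.1 and 43.1 CPM in EVMu libraries. All EVadMu libraries stood far above all EVMu libraries, with a log2 fold change of 2.08 ± 0.049 (adjusted p = 4.46e-29). Sec24a, a cargo-binding subunit, had 166, 176 and 167 CPM in EVadMu libraries, against 39.2, 40.7 and 43.5 CPM in EVMu libraries. Its log2 fold change was 2.04 ± 0.050 (adjusted p = 1.44e-28), and its groups did not overlap.

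The other genes of the COPII start also moved. Sec16a, the scaffold of endoplasmic reticulum exit sites, had 309.7, 311 and 301 CPM in EVadMu libraries, against 118, 119.5 and 119 CPM in EVMu libraries, a log2 fold change of 1.37 ± 0.036. Sar1a, the second SAR1 GTPase, had 419.6, 436 and 419 CPM in EVadMu libraries, against 202, 188 and 206 CPM in EVMu libraries. It rose by 1.1 ± 0.035, less than Sar1b. Sec16b, the shorter relative of Sec16a, was scarce. It had 2.11, 2.89 and 1.77 CPM in EVadMu libraries, against 2.38, 4.99 and 3.68 CPM in EVMu libraries, and its groups overlapped. Its log2 fold change of -0.70 ± 0.26 (adjusted p = 0.0155) passed the threshold, but not without EVadMu library 1 (0.0523), EVadMu library 3 (0.0739) or EVMu library 2 (0.178, log2 fold change -0.44), nor in DESeq2 (0.0857).

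All 6 inner coat genes were called higher, but unevenly. Sec24d had 293, 292 and 292 CPM in EVadMu libraries, against 91.3, 90.3 and 93.3 CPM in EVMu libraries, a log2 fold change of 1.67 ± 0.038 (adjusted p = 1.62e-29). Sec23a, the GTPase-activating subunit for SAR1, had 224, 239 and 240.4 CPM in EVadMu libraries, against 107, 112 and 109 CPM in EVMu libraries, a rise of 1.1 ± 0.040. Sec23b had 104, 107 and 99.2 CPM in EVadMu libraries, against 73.8, 72.2 and 73.6 CPM in EVMu libraries, a rise of 0.50 ± 0.047, less than for its partner. Sec24b and Sec24c rose by only 0.30 ± 0.042 and 0.14 ± 0.041, and the call for Sec24c was lost without scaling factors (log2 fold change 0.03, adjusted p = 0.543). The SEC24 family has a pair of close relatives in Sec24a and Sec24b and another in Sec24c and Sec24d, so in each pair 1 gene rose strongly and the other little.

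In the outer cage, Sec13, which also serves the nuclear pore and a nutrient-sensing complex, had 216, 216 and 225 CPM in EVadMu libraries, against 69.8, 69.2 and 71.0 CPM in EVMu libraries. Its log2 fold change was 1.65 ± 0.042. Sec31a had 454, 464 and 472 CPM in EVadMu libraries, against 198, 204 and 197 CPM in EVMu libraries, a rise of 1.22 ± 0.033 (adjusted p = 3.00e-27). Sec31b, the minor form, was near the detection limit with 1.30, 2.20 and 1.01 CPM in EVadMu libraries, against 2.25, 1.56 and 2.10 CPM in EVMu libraries, and its value of -0.39 ± 0.32 was not called (adjusted p = 0.269).

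Cargo receptors divided into genes that rose and genes that fell. Mia3 encodes TANGO1, which helps large cargo such as procollagen into COPII carriers, and Mia2 encodes its partner cTAGE5. Mia2 had 196, 189 and 202 CPM in EVadMu libraries, against 56.1, 57.9 and 57.5 CPM in EVMu libraries, and Mia3 had 380.4, 376 and 385 CPM in EVadMu libraries, against 181, 182 and 186 CPM in EVMu libraries. Both rose in all libraries, with log2 fold changes of 1.78 ± 0.045 and 1.06 ± 0.033. Collagen transcripts, which are among the fibroblast markers above, went the other way in the same libraries: Col1a1 averaged 14.8 CPM in EVadMu and 1283 CPM in EVMu, and Col3a1 averaged 3.82 CPM in EVadMu and 1415 CPM in EVMu.

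The mannose-binding lectin gene Lman1 encodes ERGIC-53, which carries glycoproteins such as clotting factors out of the endoplasmic reticulum. It had 69.9, 72.2 and 72.3 CPM in EVadMu libraries, against 139.7, 123 and 129 CPM in EVMu libraries. Lman1 had the lowest fold change of the tested members, -0.87 ± 0.049 on the log2 scale (adjusted p = 8.37e-18), and its groups did not overlap. Mcfd2, whose product works in a complex with ERGIC-53, rose by 1.42, with 187 ± 11.9 CPM in EVadMu and 70.0 ± 2.79 CPM in EVMu (SD, n = 3 each). The related lectin gene Lman2l had 33.0, 34.4 and 31.9 CPM in EVadMu libraries, against 44.5, 47.5 and 48.4 CPM in EVMu libraries. It fell by 0.50, while Lman2 (VIP36), a lectin that cycles between the Golgi and the endoplasmic reticulum, was at -0.03 ± 0.039 and was not called (adjusted p = 0.444). Lman1l had 1.46 ± 0.40 CPM in EVadMu and 0.703 ± 0.33 CPM in EVMu, passed the filter through EVadMu alone, and had overlapping groups. Its call (adjusted p = 0.0197) was lost without EVadMu library 1 (0.0839) or 3 (0.0628) or EVMu library 1 (0.0846) or 2 (0.112), and in DESeq2 (0.0959).

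The p24 proteins are transmembrane receptors that ride both coats and help load GPI-anchored proteins. Of the 13 Tmed rows, 8 were higher, 1 lower and 2 not called, and Tmed6 and Tmed11 were not tested. Tmed2 had 347, 357 and 360.1 CPM in EVadMu libraries, against 163, 162 and 165 CPM in EVMu libraries, a log2 fold change of 1.12 ± 0.034. Tmed9 had 223, 225 and 234.2 CPM in EVadMu libraries, against 113, 111 and 122 CPM in EVMu libraries, and Tmed7 had 246, 260.2 and 258 CPM in EVadMu libraries, against 144, 139 and 142 CPM in EVMu libraries. They rose by 0.98 ± 0.041 and 0.85 ± 0.037. Tmed3 had 86.1, 81.5 and 82.5 CPM in EVadMu libraries, against 55.8, 56.3 and 56.4 CPM in EVMu libraries, a rise of 0.57 ± 0.051. Tmed10, a partner of Tmed2 in p24 complexes, was at -0.04 ± 0.033, with 284, 294 and 295 CPM in EVadMu libraries, against 300.3, 294 and 305 CPM in EVMu libraries. Its groups overlapped and it was not called here (adjusted p = 0.243), although without scaling factors it was called lower at -0.16 (adjusted p = 5.78e-05). Tmed8, an atypical relative, had 44.5, 46.4 and 44.4 CPM in EVadMu libraries, against 63.7, 66.5 and 64.9 CPM in EVMu libraries, the reverse of the family's direction, with a log2 fold change of -0.53 ± 0.055.

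Of the other p24 rows, Tmed1 and Tmed5 rose by 0.80 ± 0.096 and 0.47 ± 0.058. Tmed4 rose by only 0.15 ± 0.053, a call that was lost without scaling factors (0.04, adjusted p = 0.477), with upper-quartile factors (0.0762) and with no filter (0.107). The retained copy Tmed2b rose by 1.12 ± 0.10, and the pseudogene Tmed10-ps was at 0.20 ± 0.15 and was not called. Both can share reads with Tmed2 and Tmed10, so their levels are uncertain. Tmed6 had 3, 0 and 3 counts in EVadMu libraries and 0 in each EVMu library, and Tmed11 had 0 counts in all of them.

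**Figure D3:**
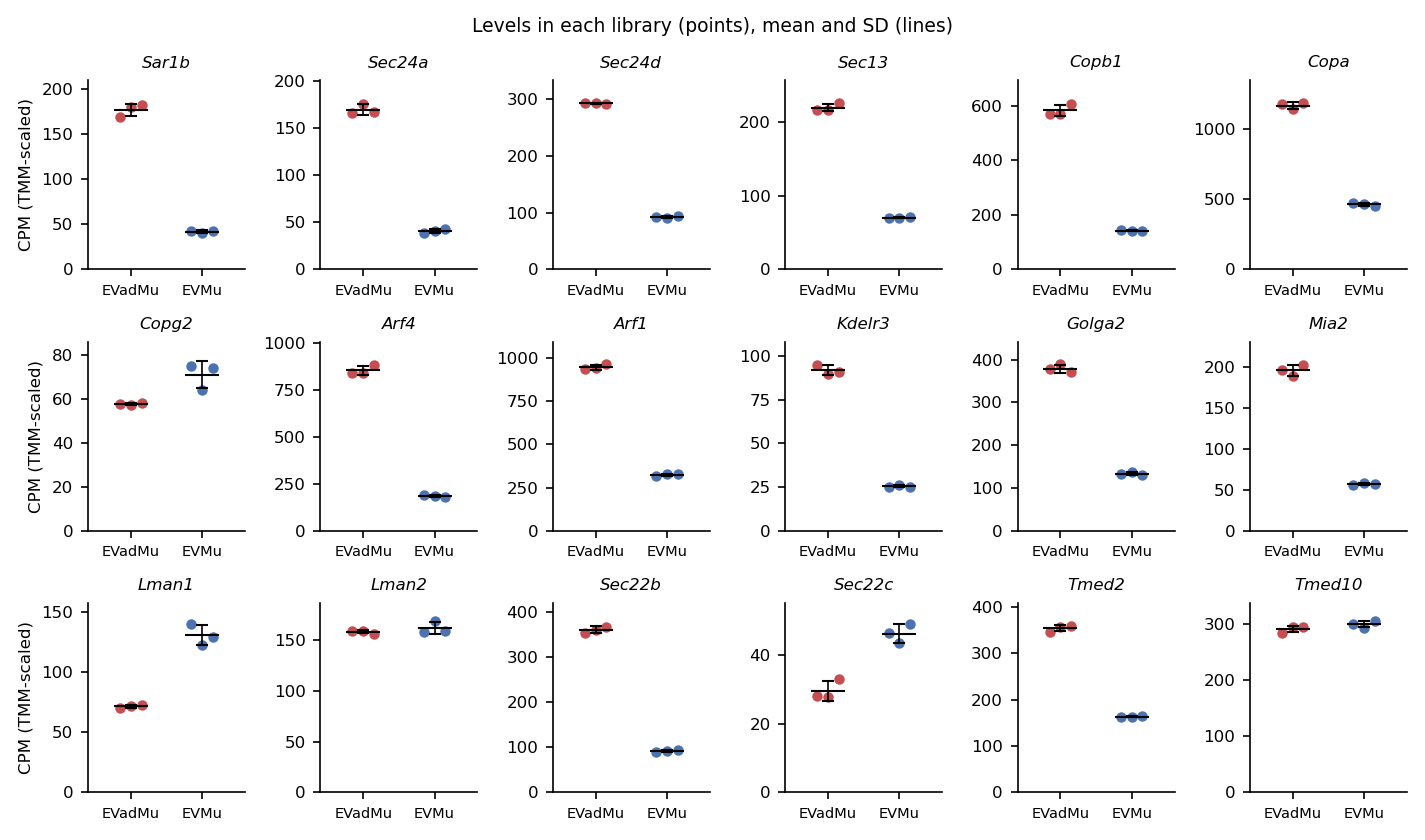
TMM-scaled CPM (vertical axes, from 0, 1 panel per gene) of 18 members in each EVadMu library (red) and each EVMu library (blue), with the mean and SD of the 3 libraries as black lines. The libraries of a group lie close together, the groups part widely for genes such as Arf4 and Copb1, they overlap for Lman2 and Tmed10, and Lman1, Sec22c and Copg2 are lower in EVadMu.

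Among the SNAREs, which fuse the carriers with their targets, Sec22b, the main one of traffic between the endoplasmic reticulum and the Golgi, had 355, 362 and 369 CPM in EVadMu libraries, against 90.1, 91.6 and 94.8 CPM in EVMu libraries. It rose by 1.97 ± 0.038 (adjusted p = 1.13e-31). Sec22c had 28.0, 27.7 and 33.0 CPM in EVadMu libraries, against 46.4, 43.6 and 49.1 CPM in EVMu libraries, a log2 fold change of -0.65 ± 0.072. Sec22a had 12.7, 14.2 and 15.6 CPM in EVadMu libraries, against 11.98, 14.1 and 11.9 CPM in EVMu libraries, with overlapping groups and no call (adjusted p = 0.189). The products of Sec22a and Sec22c are known to lack the SNARE motif of Sec22b.

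Of the 8 COPI subunit genes 7 rose. Copb1, encoding β-COP, had 571, 572 and 608 CPM in EVadMu libraries, against 144, 141 and 141 CPM in EVMu libraries, a log2 fold change of 2.04 ± 0.035 (adjusted p = 4.02e-33). Copb2, encoding β'-COP, which reads dilysine retrieval signals, had 626, 635 and 672 CPM in EVadMu libraries, against 183, 174 and 185 CPM in EVMu libraries. It rose by 1.83 ± 0.034. Copa, encoding α-COP, the partner of β'-COP in the outer layer, had 1174, 1141 and 1183 CPM in EVadMu libraries, against 470.1, 468 and 452 CPM in EVMu libraries, a rise of 1.33 ± 0.029. Cope, encoding ε-COP, had 296, 301 and 282 CPM in EVadMu libraries, against 89.9, 91.5 and 90.0 CPM in EVMu libraries, a rise of 1.70 ± 0.039. Copz1 and Copg1, the main ζ and γ subunit genes, rose by 1.27 ± 0.042 and 0.90 ± 0.031, and Arcn1, the δ subunit gene, which is outside the name rule, rose by 1.09. The transcripts of the subunits of this complex therefore rose by different amounts, from 0.90 for Copg1 to 2.04 for Copb1 among the main forms.

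The alternative γ subunit gene Copg2 went against the coat, with 57.98, 57.2 and 58.3 CPM in EVadMu libraries, against 75.3, 64.1 and 74.3 CPM in EVMu libraries. Its log2 fold change was -0.30 ± 0.057 (adjusted p = 1.39e-05), and its groups did not overlap. Reads of Copg1 and Copg2 together averaged 522 ± 6.41 CPM in EVadMu and 319.9 ± 6.36 CPM in EVMu (SD, n = 3 each), 1.63 times higher in EVadMu. Copz2, the alternative ζ form, was at 0.21 ± 0.076, and its call (adjusted p = 0.0133) was lost without EVMu library 2 (0.0929), under upper-quartile factors (0.0604) or no scaling (0.25), with no filter (0.0882) and in DESeq2 (0.0572).

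Arf4 had the highest fold change of the tested members. This class II ARF, which works with Arf1 in the early secretory route, had 838, 842 and 881 CPM in EVadMu libraries, against 194, 186 and 179 CPM in EVMu libraries. Its log2 fold change was 2.20 ± 0.033, 4.59-fold (adjusted p = 1.62e-34). Arf1, the main recruiter of COPI, had 935, 938 and 961 CPM in EVadMu libraries, against 318, 328 and 329 CPM in EVMu libraries, a rise of 1.54 ± 0.029. Arf6, which acts at the plasma membrane and in endosome recycling, had 153, 148 and 143 CPM in EVadMu libraries, against 84.3, 85.7 and 88.9 CPM in EVMu libraries, a rise of 0.78 ± 0.044. The class I gene Arf3 had 345, 340.2 and 323 CPM in EVadMu libraries, against 379, 381 and 393 CPM in EVMu libraries, a small fall with no overlap between the groups (-0.19 ± 0.033, adjusted p = 2.18e-06).

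The other ARF genes were near 0. Arf5, the class II relative of Arf4, was at 0.14 ± 0.050, a call (adjusted p = 0.0133) that was lost without EVMu library 3 (0.141), under upper-quartile factors (0.122) or no scaling (0.682) and with no filter (0.139). Arf2 was at 0.13 ± 0.067 with overlapping groups and was not called (adjusted p = 0.0633), but was called without EVadMu library 1 (0.22, adjusted p = 0.00535) and with RLE factors (0.0334). Summed by class, reads of Arf4 and Arf5 were 3.53 times higher in EVadMu and those of Arf1, Arf2 and Arf3 1.77 times.

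All 3 ARF GTPase-activating proteins that end the ARF cycle on COPI membrane rose. Arfgap1, which senses membrane curvature, had 162, 167 and 152 CPM in EVadMu libraries, against 56.8, 60.7 and 59.7 CPM in EVMu libraries, and Arfgap3 had 88.0, 94.0 and 93.1 CPM in EVadMu libraries, against 41.3, 49.5 and 46.1 CPM in EVMu libraries. Their log2 fold changes were 1.44 ± 0.048 and 1.01 ± 0.057. Arfgap2 had 42.9, 44.8 and 41.5 CPM in EVadMu libraries, against 35.6, 32.9 and 36.0 CPM in EVMu libraries, a rise of 0.31 ± 0.066, and none of these genes had overlapping groups. Gbf1, the exchange factor that loads ARFs at the early Golgi, rose by 1.04, while Arfgef1, an exchange factor of the trans-Golgi, was at 0.02 and was not called. Its relative Arfgef2 was at 0.10 (adjusted p = 0.0209), a call lost without EVadMu library 1 (0.0798) or EVMu library 1 (0.117), 2 (0.0562) or 3 (0.0688), with upper-quartile factors (0.282) or no filter (0.28), and without scaling factors, where it was at -0.01 (0.732).

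KDEL receptors return chaperones that carry a C-terminal retrieval signal from the Golgi, by way of COPI. Kdelr2 had 299.6, 292 and 307 CPM in EVadMu libraries, against 94.96, 103 and 99.9 CPM in EVMu libraries, and Kdelr3 had 94.9, 89.9 and 90.7 CPM in EVadMu libraries, against 25.4, 26.2 and 25.4 CPM in EVMu libraries. They rose by 1.59 ± 0.039 and 1.84 ± 0.057 (adjusted p = 2.18e-28 and 2.21e-25). Kdelr1 had 109, 110.4 and 108 CPM in EVadMu libraries, against 86.5, 83.2 and 86.6 CPM in EVMu libraries, a smaller rise of 0.36 ± 0.045. Reads of these receptor genes together averaged 500.5 ± 7.68 CPM in EVadMu and 210.2 ± 2.97 CPM in EVMu, 2.38 times higher in EVadMu.

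Golgins are long coiled-coil proteins that catch vesicles at Golgi membrane. Golga2, encoding GM130 of the cis-Golgi, had 377, 389 and 371 CPM in EVadMu libraries, against 134, 137 and 131 CPM in EVMu libraries, a log2 fold change of 1.5 ± 0.036. Golga4, a golgin of the trans-Golgi, had 368, 364 and 360.3 CPM in EVadMu libraries, against 138, 136 and 138 CPM in EVMu libraries, and Golga3 had 220.2, 225 and 222 CPM in EVadMu libraries, against 87.9, 92.3 and 89.1 CPM in EVMu libraries. They rose by 1.41 ± 0.035 and 1.31 ± 0.040. Golga7, which despite its name is a small palmitoyltransferase partner, had 240.5, 245 and 263 CPM in EVadMu libraries, against 94.96, 99.5 and 84.2 CPM in EVMu libraries, a rise of 1.43 ± 0.047, and Golga5 (golgin-84) rose by 1.24 ± 0.054. Golga1 (golgin-97), another trans-Golgi golgin, had 36.0, 36.4 and 39.8 CPM in EVadMu libraries, against 38.1, 37.2 and 36.7 CPM in EVMu libraries and its groups overlapped.

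The balance of reads within 18 pairs of related members was also compared. The first gene's share of a pair's counts did not overlap between the groups in any pair. Each two-sided exact permutation test over the 6 libraries gave p = 0.1 (adjusted over the pairs 0.1), the smallest value that 3 against 3 libraries allow, so none can pass 0.05. For single genes, not pairs, 39.4% of all tested had levels wholly higher and 41.4% wholly lower in EVadMu. The share of a pair depends on transcript length, and so does the size of its difference in points. Only the direction of such a difference can therefore be read.

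Among COPII pairs, Sec24a made up 54.5%, 55.9% and 54.2% of Sec24a and Sec24b reads in EVadMu libraries, against 25.5%, 25.8% and 28.6% in EVMu libraries. Sec24c made up 37.6 ± 1.13% of its pair with Sec24d in EVadMu and 63.6 ± 0.97% in EVMu (SD, n = 3 each). Sar1a held 70.5 ± 0.79% of SAR1 reads in EVadMu and 82.6 ± 0.17% in EVMu. Sec23a held 69.4 ± 1.31% of SEC23 reads in EVadMu and 59.9 ± 0.77% in EVMu. Mia2 held 33.96 ± 0.50% of its pair with Mia3 in EVadMu and 23.8 ± 0.26% in EVMu.

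On the COPI side, Arf1 held 73.0%, 73.4% and 74.9% of Arf1 and Arf3 reads in EVadMu libraries, against 45.6%, 46.2% and 45.6% in EVMu libraries. Arf4 held 90.6 ± 0.28% of class II reads in EVadMu and 69.8 ± 0.31% in EVMu. Copg1 held 88.9 ± 0.15% of γ-COP reads in EVadMu and 77.8 ± 1.51% in EVMu, and Copz1 held 87.8 ± 0.54% of ζ-COP reads in EVadMu and 77.5 ± 0.72% in EVMu. Kdelr1 held 26.8 ± 0.68% of its pair with Kdelr2 in EVadMu and 46.3 ± 1.46% in EVMu. Kdelr2 held 76.5 ± 0.63% of its pair with Kdelr3 in EVadMu and 79.4 ± 0.46% in EVMu.

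**Figure D4:**
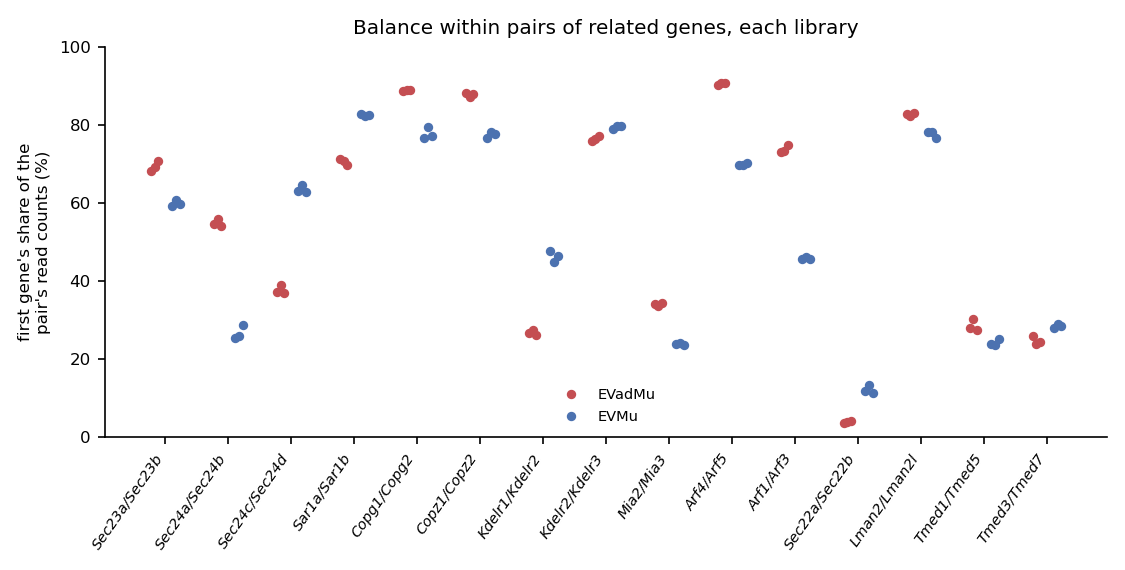
Share of a pair's read counts held by the first named gene (vertical axis, percent) in each EVadMu library (red) and each EVMu library (blue) for 15 of the 18 pairs. The other pairs have a second gene that is near 0. In percentage points the differences are widest for Sec24a with Sec24b (54.9% in EVadMu, 26.7% in EVMu) and Arf1 with Arf3 (73.8% in EVadMu, 45.8% in EVMu). As a difference of log2 ratios, which transcript length does not alter, Arf4 with Arf5 is widest of those shown (2.062). Sec22a with Sec22b is at -1.81, Sec24a with Sec24b at 1.745 and Arf1 with Arf3 at 1.735.

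Genes that work with the coats but lie outside the name rule moved in the same direction more often than the other. Of 26 coat and cargo factors, 23 were higher and 1 lower, against 39.2% and 40.8% of all tested genes, with a median log2 fold change of 0.62. Yipf5 and Yif1a, which form a complex cycling between the endoplasmic reticulum and the Golgi, rose by 1.79 and 1.93. Yipf5 averaged 222 ± 4.13 CPM in EVadMu and 64.4 ± 5.34 CPM in EVMu. The exception was Cnih4, a cornichon-type cargo receptor gene, at -0.50 (37.7 ± 0.99 CPM in EVadMu and 53.4 ± 1.67 CPM in EVMu).

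Of 51 tethers and SNAREs of the early secretory route, 34 were higher and 8 lower, against 39.2% and 40.8% of all tested genes. Their median log2 fold change was 0.56. Napa, encoding the SNARE adaptor α-SNAP, rose by 1.73, with 683 ± 5.29 CPM in EVadMu and 206 ± 12 CPM in EVMu. The Golgi stacking gene Gorasp2, the golgin gene Golgb1 (giantin) and the SNARE gene Stx5a rose by 1.33, 1.06 and 1.5. Those that fell included 4 subunits of the TRAPP tether, Trappc12 (-0.54), Trappc13 (-0.50), Trappc2 (-0.46) and Trappc9 (-0.44), and Napb (-0.25). Other TRAPP genes were called higher, namely Trappc2l (0.82), Trappc4 (0.77), Trappc10 (0.69), Trappc3 (0.68), Trappc8 (0.53), Trappc6a (0.51) and Trappc6b (0.43). Trappc1, Trappc5 and Trappc11 were not called. Of the COG tether, Cog8 (1.28), Cog3 (1.09), Cog2 (1.00), Cog6 (0.65), Cog5 (0.51) and Cog4 (0.23) were called higher, and Cog7 was not called. Nsf was at -0.13, a call lost without EVadMu library 1 (-0.08, adjusted p = 0.0719). Cog1 (-0.15, adjusted p = 0.0273) and Stx16 (-0.11, adjusted p = 0.0485) had overlapping groups. The call for Cog1 was lost without EVadMu library 2 (0.0796) or 3 (0.103) or EVMu library 1 (0.0522) or 2 (0.147), with RLE factors (0.0554) and in DESeq2 (0.152). That for Stx16 was lost without EVadMu library 1 (0.217), 2 (0.0567) or 3 (0.114) or EVMu library 1 (0.156) or 3 (0.0876), with RLE factors (0.106), the stricter filter (0.0516) and the replicate block (0.0716), and in DESeq2 (0.206). Napb is the brain-enriched relative of Napa.

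Among 42 genes of glycosylation in the Golgi, 10 were higher, 25 lower and 7 not called, against 39.2% higher and 40.8% lower over all tested genes. Their median was -0.78, and 18 fell at least 2-fold, against 23.5% of all tested genes. Mgat3, which adds the bisecting residue to N-glycans, averaged 10.8 ± 1.68 CPM in EVadMu and 94.2 ± 1.85 CPM in EVMu. The sialyltransferase genes St6gal1 and St3gal2 averaged 24.3 ± 1.15 and 35.5 ± 0.74 CPM in EVadMu, against 110.2 ± 2.47 and 149 ± 9.87 CPM in EVMu. B4galt6, a lactosylceramide synthase gene, had a log2 fold change of -2.14.

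Members of that list that rose included Gnptg (1.65), a subunit of the enzyme that tags lysosomal hydrolases, whose catalytic precursor gene Gnptab fell by 1.35, and B4galt7 (1.52), Galnt3 (1.26), Slc35a2 (0.84), B3galt6 (0.75), St3gal6 (0.40), Galnt11 (0.33), Mgat1 (0.27) and Galnt10 (0.20). The call for St3gal6 was lost without EVMu library 2 (adjusted p = 0.0665), without scaling factors (0.0641) and in DESeq2 (0.0552). St3gal3 was at 0.20 (adjusted p = 0.035) with overlapping groups, a call lost without EVadMu library 2 (0.0528) or 3 (0.0969) or EVMu library 1 (0.246) or 3 (0.0836), with upper-quartile factors (0.117), no scaling (0.349) or no filter (0.148), and in DESeq2 (0.116). Fibroblast and glia markers fell in the same libraries (11 of 12 each, as above), and their part in the fall of these enzymes was not tested.

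**Figure D5:**
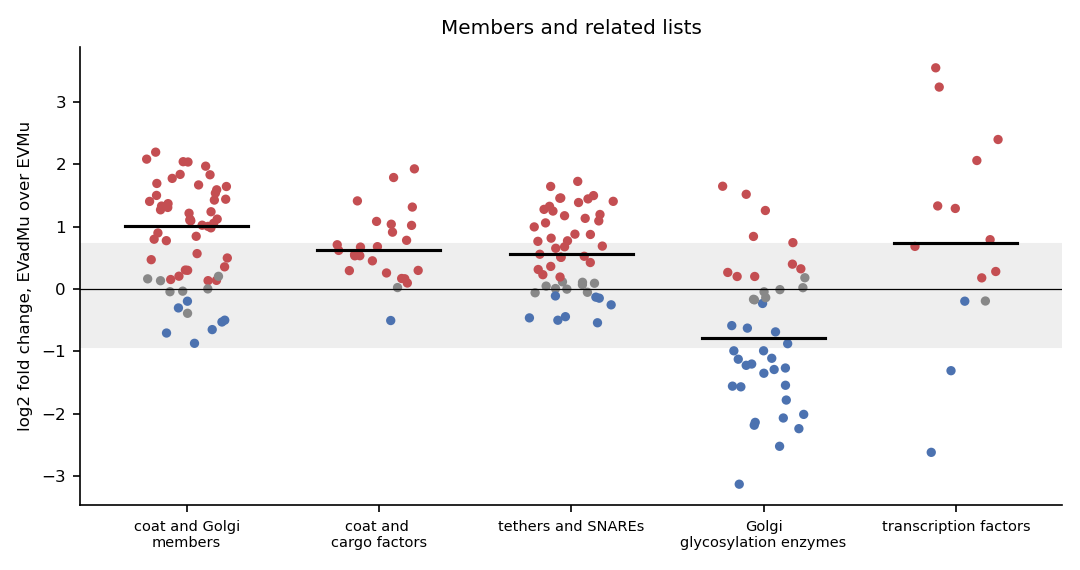
Log2 fold changes of EVadMu over EVMu (vertical axis) for the tested members and for 4 related lists, 1 point per gene, red called higher, blue called lower and grey neither, with black bars at the medians. The grey band spans the middle quartiles of all tested genes (-0.93 to 0.73). The medians are 1.01 for the members, 0.62 for coat and cargo factors, 0.56 for tethers and SNAREs, -0.78 for glycosylation enzymes and 0.74 for transcription factors. The list of transcription factors also holds the protease genes Mbtps1 and Mbtps2.

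Transcription factors linked to secretory capacity were also listed, together with the protease genes Mbtps1 and Mbtps2. Of 16 rows, 14 were tested. Of these 10 were higher and 3 lower, against 39.2% and 40.8% of all tested genes, with a median log2 fold change of 0.74. A factor name occurs in more than a single row, so these counts are of rows, not of genes. A single value is given per factor, and that of the further row is not given here. The higher call of Creb3l4 was lost without EVadMu library 2 or 3 or EVMu library 3, without scaling factors and in DESeq2. That of Mbtps2 was lost without EVadMu library 3 or EVMu library 3, with upper-quartile factors, no scaling or no filter, and in DESeq2. Atf6 and Xbp1, whose products bind the TGACGTGG core, averaged 217.5 ± 4.20 and 292 ± 7.76 CPM in EVadMu, against 88.7 ± 1.73 and 116 ± 0.84 CPM in EVMu. Creb3, a membrane-bound factor linked to ARF4 in Golgi stress, averaged 275 ± 10.5 CPM in EVadMu and 65.9 ± 1.62 CPM in EVMu, a log2 fold change of 2.06. Its relatives Creb3l2, known to drive Sec23a in cartilage, and Creb3l1, known for bone collagen secretion, fell by 2.62 and 1.31. Ddit3 (CHOP) and Atf4 rose by 3.55 and 2.40, and the protease gene Mbtps1, which cuts ATF6, fell by 0.19. Tfe3, whose product binds the ACGTGGC core, averaged 117 ± 2.89 CPM in EVadMu and 72.8 ± 4.5 CPM in EVMu.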

How the data were processed

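The libraries were made from TRIzol-extracted, poly(A)-selected RNA with random hexamer priming, per the labels' protocols, which name no step that marks strand. The authors deposited 1 table of raw whole-number gene counts. The tools are HISAT2, featureCounts, SAMtools and CASAVA 1.8, with the mouse build mm39, per the submitters' processing notes, while the labels name rat. The sources used here do not give the strand setting, the annotation release or the treatment of multiply mapped reads. A mouse build can lose rat reads unequally between genes, and this was not tested.

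Groups came from sample titles. Genes passing edgeR's expression filter (minimum count 10, minimum total 15) were fitted in R 4.3.3 with edgeR 4.0.16 (TMM factors, quasi-likelihood F-test, Benjamini-Hochberg adjustment over 16993 genes, threshold 0.05), after the fit was tested on simulated data. The standard error is the log2 fold change divided by the square root of F. Alternatives used limma 3.58.1 (voom), DESeq2 1.42.0, RLE, upper-quartile and no scaling factors, an unfiltered table, a strict one (20 counts in 3 libraries and a mean CPM of 1), a replicate block and leaving out each library. Per-library values are given for the members of each role with the 4 smallest p and those against their role's majority, and of related lists up to 4 called genes with the smallest p and those called against the majority are named, with means or fold changes only. Members and lists were chosen with earlier results of these data known. Further genes named (Tfe3, Atf6, Xbp1, Creb3l4, Mbtps2, Gbf1, Arfgef1, Arfgef2, Gnptab, Col1a1, Col3a1, and the TRAPP and COG genes that rose or were not called) were chosen after values were seen. Promoter windows are RefSeq's, with 9 members unmatched. A list of proteins with KDEL-type tails was not analysed here.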

Additional observations from a re-analysis of the deposited data

How the results depend on the processing

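Across the alternatives run, 41 to 46 of the 61 rows were called higher and 6 to 9 lower, and every such count stayed within 1.5 times that reported. Leaving out 1 library gave 43 to 45 higher and 6 or 7 lower. The sample titles share replicate numbers. Deviations of same-numbered libraries were uncorrelated (-0.007, -0.004 and -0.01), which gives no sign of pairing. This check cannot exclude a pairing that left little variance between libraries. The fit with the replicate block also gave 45 higher and 7 lower, with no member's call changed. The members' median log2 fold change was 0.95 with upper-quartile factors and 0.89 without scaling factors, which moved the median of all tested genes by -0.11, and 0.93 to 1.02 when 1 library was left out. Coat and cargo factors called lower numbered 2 without scaling factors. Golga1, near 0 throughout, turned to -0.049 with upper-quartile factors, -0.11 without scaling factors and -0.040 with no filter, and lay between -0.034 (without EVadMu library 3) and 0.044 (without EVadMu library 1) when 1 library was left out, also below 0 without EVMu library 2 (-0.0086) or 3 (-0.017). The median over all genes moved by 0.10 with no filter (35783 rows fitted) and by 0.16 in DESeq2, which both differ from the reported fit in rows and in scaling, and the cause was not tested. Other calls lost or gained for single genes named are given with those genes. For Lman2 they were a call lower without scaling factors (-0.15) and with upper-quartile factors (-0.09), and for Tmed10 lower calls with upper-quartile factors and with no filter (-0.09 and -0.08). Members at a few CPM (Sec16b, Sec31b, Lman1l) are limited by depth.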
